A study of Mus musculus with 64 samples.

Results

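The cytosolic ribosomal protein genes were followed through RNA-seq of hippocampus and liver from wildtype (WT) mice and from a mouse model of Angelman syndrome (AS). Members were the protein-coding genes whose mouse symbol is Rpl or Rps followed by a digit, together with Rplp0, Rplp1, Rplp2 and Rpsa. The 10 genes of Rps6k kinases and 290 pseudogenes were left out, as were 6 genes that are annotated as protein-coding but carry a pseudogene symbol. This gave 86 members among 55414 gene IDs of the acute experiment and 55573 of the continuous experiment. Of these, 52 are named for the 60S subunit and 34 for the 40S subunit, 77 are core ribosomal proteins and 9 are paralogs or genes named after one.

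WT and Ube3am-/p+ (AS) littermates were F1 hybrids of C57BL/6J males and 129sv Ube3am+/p- females, so every mouse carried the mixed background. The AS allele, Ube3atm1Alb, lacks exon 5, and because neurons silence the paternal copy, its maternal loss removes the UBE3A ligase from neurons while other cells keep a paternal copy. Mice were males of 10 to 18 weeks. In the acute experiment, hippocampus was taken 3 h after a subcutaneous injection of vehicle or of 3 mg/kg corticosterone (CORT), and each combination of genotype and injection had 6 mice. In the continuous experiment, hippocampus and liver were taken at day 6 after implantation of a cholesterol vehicle pellet or a pellet holding 20 mg of CORT, with 5 mice per group. The hippocampal libraries H9 (AS vehicle) and H13 (WT vehicle) of the continuous experiment were left out of the fits, as in the study.

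Each ribosome is built from a small 40S and a large 60S subunit, and nearly all ribosomal proteins are present once in each ribosome, while the stalk proteins of Rplp1 and Rplp2 are present in more than one copy. Most of these mRNAs begin with a C followed by a run of pyrimidines, the terminal oligopyrimidine (TOP) motif, through which mTORC1, a nutrient and growth factor sensing kinase complex, controls how strongly they are translated. In liver, glucocorticoids are known to alter protein turnover and amino acid use, and in neurons local ribosomes serve synapses.

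The start sites of 66 members were found among the RefSeq promoters of GRCm38.p6. A run of at least 7 C or T bases, searched on the transcribed strand only and lying within 5 bases of the annotated start, was present in 29 of them (43.9%), against 16.4% of 27025 genes with a promoter entry. To show what such starts look like, 30 bases around the start are given 5′ to 3′ for members on which the results below turn. They are 12 bases before the start and 18 from it on, with the longest run lying within 5 bases of the start in capitals. They lie at chr9:120571505-120571534 (Rpl14, + strand), chr1:39367839-39367868 (Rpl31, +), chr2:180257367-180257396 (Rps21, +), chr10:80292419-80292448 (Rps15, +), chr3:28805496-28805525 (Rpl22l1, +) and chr9:66946074-66946103 (Rps27l, +). The starts are those of RefSeq, which for some members, such as Rpl14 and Rps15, lie inside or before the gene as GENCODE places it.
Rpl14: cgggCCCTCTCTCTTCTCgctgagcgccgc
Rpl31: cctcctcgCCTCCCCgtgacccggaagttg
Rps21: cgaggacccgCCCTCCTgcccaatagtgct
Rps15: ggcagagctcgcgataactgcgcaagcgca
Rpl22l1: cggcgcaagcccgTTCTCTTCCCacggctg
Rps27l: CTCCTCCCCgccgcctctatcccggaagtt
The run was 14 bases long in Rpl14, 7 in Rpl31 and Rps21, 10 in Rpl22l1 and 9 in Rps27l. It spans the annotated start in Rpl14, Rpl31 and Rps21 and begins after it in Rpl22l1. In Rps27l it ends before the annotated start, so it is not part of the mRNA by this annotation. Rps15 had none in this window, which says only that these letters are not there.

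In GRCm38, Rpl31 (ENSMUSG00000073702) lies at chr1:39367842-39371911, Rps21 (ENSMUSG00000039001) at chr2:180257377-180258445, Rps4x (ENSMUSG00000031320) at chrX:102184941-102189394 and Rps27l (ENSMUSG00000036781) at chr9:66946086-66949516. Members lie on 19 chromosomes and are encoded by short mRNAs, with a median transcript length of 729 bases for the members tested against 2935.5 bases for all protein-coding genes tested in the acute experiment. At least 1 pseudogene carries the name of 57 members, up to 24 for a single member. Counts on these pseudogenes came to between 0.849% and 1.45% of the member counts over all libraries. Reads of member genes may be split with such copies, and 4 members share at least 20% of their exon length with another gene on the same strand (Rpl24, Rpl36al, Rps10 and Rpl13a), so their counts are uncertain.

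Libraries held 18.6 to 21.8 M counts on genes over both tissues, and 3 counts corresponded to 0.138 to 0.161 CPM, a floor that covers counting error only. CPM are library-size normalized counts after TMM scaling, which allows for differences in library composition. Neuronal markers summed to 3961 to 5772 CPM in the acute hippocampus and hepatocyte markers to 95871 to 130975 CPM in liver. Ube3a, counted over all its exons, was 63.2 to 84.7 CPM in WT vehicle and 64.1 to 79.9 CPM in AS vehicle mice of the acute experiment (n = 6 each, log2 difference of -0.06, adjusted p = 0.895), a measure that does not isolate the deleted exon. In liver it was 48.3 ± 4.96 and 33.0 ± 4.05 CPM (SD, n = 5 each, log2 difference of -0.55, adjusted p = 0.0191). Fkbp5, a target gene of the glucocorticoid receptor, rose with CORT by a log2 fold change of 0.82 in WT and 1.10 in AS acute hippocampus and of 3.43 and 4.14 in liver. In the acute experiment, reads set aside for low alignment quality numbered 1877 to 2237 in libraries H1 to H16 and 2640 to 2850 in libraries H17 to H24, and the latter are 2 AS vehicle libraries (H17 and H18) and all 6 AS CORT libraries.

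The 86 members together took between 0.752% and 1.66% of the counts on genes in a library. In the acute hippocampus, this share ran from 0.769% over a median of 0.973% to 1.02% with vehicle and from 0.781% over 0.895% to 1.27% with CORT in WT mice (n = 6 each). In AS mice it ran from 0.752% over 0.868% to 1.02% with vehicle and from 0.979% over 1.03% to 1.07% with CORT (n = 6 each). Among the AS vehicle mice, H14, H16 and H13 were at 0.752%, 0.777% and 0.807%, H15 at 0.930%, and H17 and H18 at 1.001% and 1.02%. H17 and H18 lay within the range of the AS CORT mice, but the shares alone show no clear break between H15 and these libraries. In whole tissue, fewer cells of a type and less RNA per cell cannot be told apart. In the WT CORT group, H8 stood at 1.27% and the other 5 mice reached at most 0.952%.

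**Figure D1:**
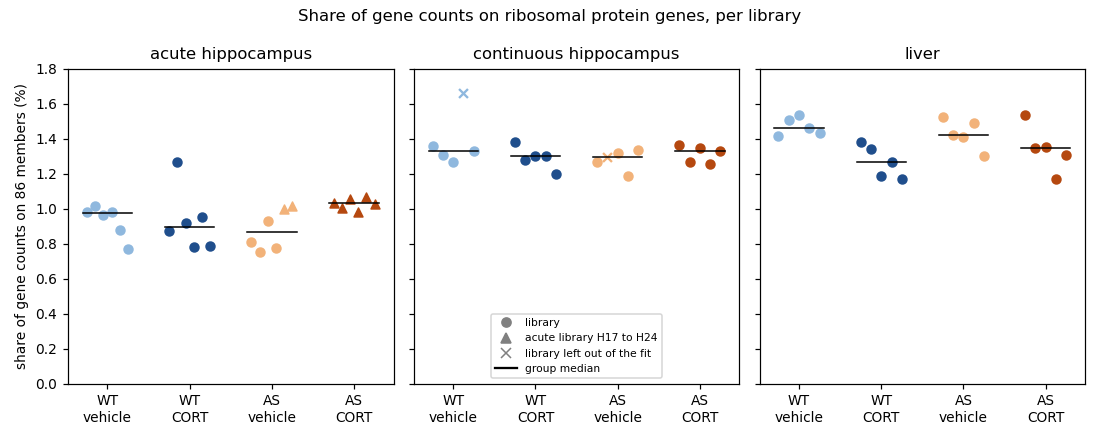
Share of each library's gene counts on the 86 ribosomal protein genes (%), by group, for acute hippocampus, continuous hippocampus and liver. Points are libraries (triangles, acute libraries H17 to H24, crosses, libraries left out of the fits) and lines are group medians. Acute libraries H17 to H24 lie between 0.979% and 1.07%, and the WT CORT livers lie between 1.17% and 1.38%, below all WT vehicle livers at 1.42% to 1.53%.

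The share was higher in the continuous hippocampus, with a median of 1.31% over the 18 libraries fitted, from 1.19% to 1.38%, and 1.66% in H13, which was left out. In liver it ran from 1.42% to 1.53% in WT vehicle mice and from 1.17% to 1.38% in WT CORT mice, so that these groups did not overlap. As a share of all reads in the table they did overlap, at 1.12% to 1.22% in WT vehicle and 0.953% to 1.14% in WT CORT livers. By counts on genes, AS vehicle livers (1.30% to 1.52%) and AS CORT livers (1.17% to 1.54%) did overlap. No test was made between the acute and continuous experiments, which differed in how CORT was given and for how long.

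A gene was tested where 3 or more mice of some group had over 20 normalized counts, and 81 of the 86 members met this in each experiment. Rpl10l, Rpl24, Rpl36al, Rpl39l and Rpl3l did not. Rpl10l, a copy of the X-linked Rpl10 known for its expression in testis, had 0 counts in every library, which allows at most the floor of 3 counts. Rpl24 had at most 8 counts in any library, with 47.0% of its exon length shared with another annotated gene, so these counts cannot be read as the level of its mRNA. Rpl3l, known from striated muscle, and Rpl39l, known from testis, had at most 11 and 12 counts.

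The first question was whether a single dose of CORT alters ribosomal protein mRNAs in the hippocampus of either genotype. In WT mice 0 of 81 members passed the threshold (adjusted p under 0.05 by edgeR over all genes tested), against 1.48% of all genes tested, 1 member had an unadjusted p under 0.05, and DESeq2 called 0. Every member lay within 0.2 of 0 on the log2 scale, from -0.17 to 0.19, with a median of -0.003 and a median standard error of 0.10. Without H8 the median was -0.09 over 80 members, and Rps21 was at -0.33 (adjusted p = 0.439). In AS mice 13 members were higher with CORT and 0 were lower, which is 16.05% of the 81, whereas 17.9% of all genes tested passed and 8.25% passed as higher. Of these 13, 9 also passed with GC and length trends removed and 13 also by DESeq2. The median log2 fold change of members was 0.19 in AS mice, against 0.006 over all genes, and 76 of 81 were above 0.

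Rpl31, Rpl29, Rpl14 and Rpl7 were among the members with the smallest p in AS mice. Rpl31, a 60S protein, ran from 70.8 over a median of 81.5 to 134.9 CPM with vehicle and from 121.4 over 135.2 to 138.0 CPM with CORT in AS mice, and from 78.4 over 95.7 to 120.3 and from 72.4 over 85.3 to 116.6 CPM in WT mice. CORT mice of the AS genotype were thus above 4 of the 6 AS vehicle mice and overlapped with the other 2, H17 and H18. The log2 fold change was 0.48 ± 0.14 (SE, adjusted p = 0.0192).

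Rps21, a small 40S protein, had 53.6 to 73.7 CPM in H13 to H16, 116.2 in H17, 128.2 in H18 and 110.2 to 133.9 CPM in AS CORT mice. The vehicle and CORT groups again overlapped through H17 and H18 only, and the log2 fold change was 0.54 ± 0.17 (SE, adjusted p = 0.0302). Rpl14 (0.49), Rpl29 (0.47) and Rpl7 (0.34), all of the 60S subunit, rose on the log2 scale with adjusted p-values of 0.0270, 0.0213 and 0.0271, and further rises, among them those of Rps15a, Rps25, Rps15, Rpl11, Rpl6, Rpl23a and the paralog Rpl22l1, were between 0.24 and 0.43. All values of the AS CORT group lay above all values of the AS vehicle group for 3 members, while this held for 439 of the 14611 genes tested.

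Proteins of the stalk, which recruits elongation factors, did not pass. Their log2 fold changes with CORT in AS mice were 0.17 ± 0.09 for Rplp0, 0.10 ± 0.11 for Rplp1 and 0.04 ± 0.09 for Rplp2 (SE, adjusted p of 0.181, 0.529 and 0.820). Rpsa, the 40S protein also known as laminin receptor, was at 0.05 ± 0.09 (adjusted p = 0.718). Rpl13a, Rps18 and Rpl4, which serve as reference genes in PCR assays, had log2 fold changes of 0.11, 0.28 and 0.23, with adjusted p-values of 0.516, 0.0844 and 0.0517. The median log2 fold changes of the subunits were 0.20 over the 34 members of the 40S and 0.18 over the 47 tested members of the 60S.

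**Figure D2:**
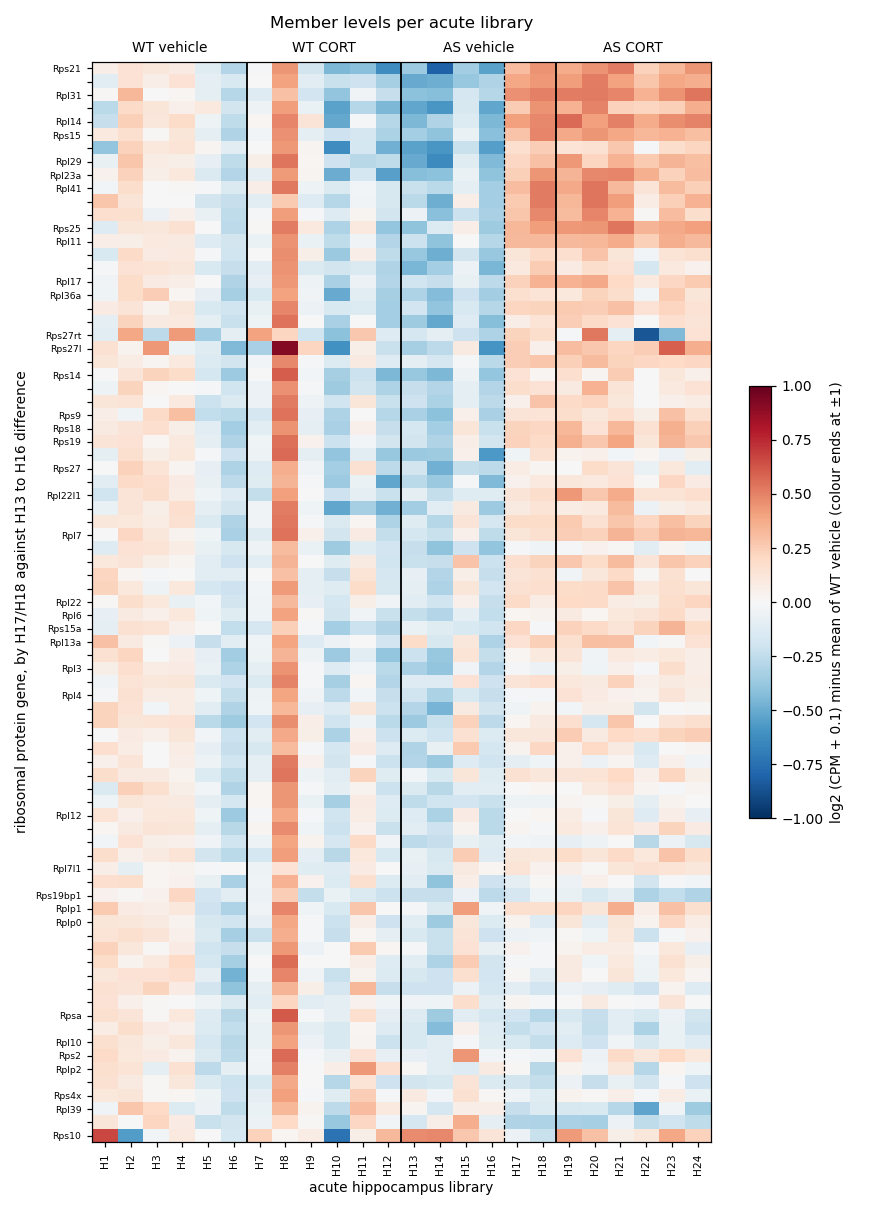
Level of 81 ribosomal protein genes (rows, ordered by the difference of H17 and H18 from H13 to H16) in the 24 acute hippocampal libraries (columns, by group; names on the left are given for members described in the text), as log2 (CPM + 0.1) minus the mean of WT vehicle. The dashed line divides AS vehicle libraries H13 to H16 from H17 and H18, and the upper members, among them Rps21 and Rpl31, are high in H8, H17, H18 and the 6 AS CORT libraries.

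The second question was whether this difference in AS mice follows CORT or the division of the libraries at H17. Within the AS vehicle group, with no difference in genotype or treatment, 19 members were higher in H17 and H18 than in H13 to H16 and 0 were lower, which is 23.5% of the 81, while 8.23% of all genes tested passed and 4.36% passed as higher. The median log2 difference of members was 0.25, against -0.01 over all genes. Rpl31 differed by 0.80 ± 0.13 (SE, adjusted p = 0.000844), Rps21 by 0.88 ± 0.18 (adjusted p = 0.00422), Rpl41 by 0.64 ± 0.13 and Rps15 by 0.69 ± 0.14. Only H17 and H18 carry this comparison. Reads mapped to several places were 6.23% and 6.93% of reads in H17 and H18 and 5.44% to 5.97% in H13 to H16, and their part in the difference was not tested. Without H18 2 members and 71 genes passed and without H17 9 members and 400 genes, each time with a single library in that arm that is assumed to vary like the other groups, and without H16 12 members and 903 genes passed.

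With a covariate for libraries H17 to H24, 0 members passed for CORT in AS mice, where 1.03% of all genes did, the median log2 fold change of members was 0.03, and Rpl31 was at -0.00011. This covariate rests on the AS vehicle group alone, since all 6 AS CORT libraries and no WT library are among H17 to H24. When the AS vehicle group was reduced to H17 and H18, a setting chosen after the data were seen, 0 members passed (0.908% of genes), and when it was reduced to H13 to H16, 43 passed, 42 of them higher (30.8% of genes). The count of 13 also fell to 0 when H13, H14 or H16 was left out singly and to 2 without H15, and it rose to 26 and 27 without H17 and H18. Leaving out a single AS CORT mouse gave 4, 6, 5, 8, 5 and 6 for H19 to H24, and leaving out H7, H9 or H8 of the WT CORT group gave 8, 8 and 26 (21.8% of genes without H8). For the other mice left out singly, the share of all genes is not given here. Those counts thus do not show whether members moved differently from all genes.

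Levels of cell type markers were set beside this division. Neuronal markers summed to 4826 to 5289 CPM in H13 to H16, to 4939 to 5114 CPM in H17 and H18 and to 4150 to 5097 CPM in AS CORT mice. Oligodendrocyte markers summed to 2437 to 4635, 2419 to 3519 and 1663 to 3231 CPM, and blood markers to 86.5 to 186, 85.1 to 85.5 and 55.3 to 149 CPM, in the same order. Astrocyte markers summed to 893 to 1016, 953 to 1063 and 992 to 1131 CPM, and those of microglia and macrophages to 220 to 256, 200 to 219 and 183 to 235 CPM. H17 and H18 thus lay below H13 to H16 in blood and microglia markers and within or across their range in the others. Cd3e, one of 3 lymphocyte markers, was at 0 in all 24 libraries. The part of these cells in the member differences was not tested.

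Members were also compared between genotypes, to ask whether UBE3A loss alters them before or after CORT. With vehicle, 0 of 81 passed, against 0.157% of all genes, with 4 members at an unadjusted p under 0.05, 0 called by DESeq2 and a median log2 difference of -0.08. With CORT, 14 members passed, 12 higher and 2 lower in AS mice, which is 17.3% of the 81, whereas 24.9% of all genes passed and 11.7% passed as higher. With GC and length trends removed, 24 passed, 18 higher and 6 lower, of which 11 are among the 14. The shares of all genes above belong to the main fit and cannot be set beside this 24. Rpl31 was higher by 0.58 ± 0.14 (SE, adjusted p = 0.00454), Rps15a by 0.34 ± 0.08 (adjusted p = 0.00574), and Rps21 and Rpl23a by 0.56 and 0.47. Rpl39, a very small 60S protein of the exit tunnel, was lower in AS mice, with 15.97 to 22.5 CPM in AS CORT and 19.3 to 29.0 CPM in WT CORT mice (log2 fold change of -0.33 ± 0.10, adjusted p = 0.0182). Rpsa was the other lower member (-0.26 ± 0.09, adjusted p = 0.0417), which rested on H8 with 677.3 CPM, since its adjusted p was 0.0921 without this library.

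Since the AS CORT libraries all follow the division and the WT libraries all precede it, genotype and division cannot be told apart in these mice. With the covariate 0 members and 0% of all genes passed, and the log2 differences of Rpl31 and Rps21 turned to -0.22 and -0.33, each with a larger standard error than without it. Without H8, 39 members passed, 38 of them higher in AS mice (28.6% of genes). The count was 6, 8 and 4 without H10, H11 or H12, and 8 without H19 or H20. Without the share of all genes in these fits, which is not given here, they cannot be set against other genes.

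The interaction, which subtracts the WT response to CORT from the AS response, tests whether the genotypes differ in their response. By edgeR 0 members passed, against 4.49% of all genes, 19 had an unadjusted p under 0.05 and DESeq2 called 2. The median log2 difference was 0.21, and the lowest adjusted p was 0.0557, for Rps15a (0.39 ± 0.12, SE). Without H8, 22 members passed (9.63% of genes), all higher in AS mice, and with AS vehicle mice reduced to H13 to H16, 26 did, along with 2845 of 14566 genes. With the covariate for H17 to H24, 0 members and 1 gene passed and the median of members was 0.03, and with AS vehicle mice reduced to H17 and H18, 0 members and 0 genes passed, with the median again at 0.03.

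**Figure D3:**
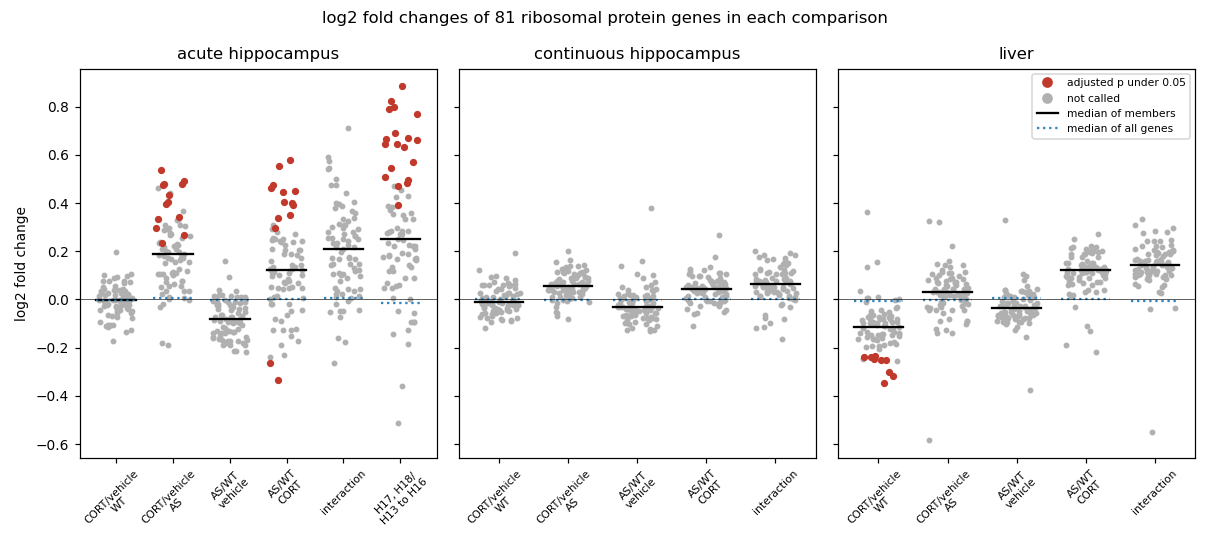
Log2 fold changes of 81 ribosomal protein genes in each comparison of the acute hippocampus, continuous hippocampus and liver. Each point is a gene (red, adjusted p under 0.05) and lines are medians. Red points lie above 0 for CORT in AS mice and for H17 and H18 against H13 to H16, on both sides of 0 for AS against WT with CORT, and below 0 for CORT in WT liver.

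Genes that work with the ribosomal proteins were read beside them, in lists chosen with these results in part known. Of 18 other genes with TOP mRNAs, such as elongation factors, 3 were higher with CORT in AS acute hippocampus (Eif4b, 0.21, Hnrnpa1, 0.26, and Npm1, 0.29, log2 fold changes) and 4 were higher in H17 and H18 than in H13 to H16, among them Npm1 (0.48) and Fau (0.55), which encodes the 40S protein S30 fused to a ubiquitin-like protein. Of 54 genes of ribosome assembly, 12 passed for CORT in AS mice, 11 of them higher, as with Dkc1 (0.24), the pseudouridine synthase of ribosomal RNA, and 13 were higher in H17 and H18, as with the nucleolar protein gene Ncl (0.77). Initiation factors numbered 4 of 31 for CORT in AS mice and 8 of 31 for the division, and mitochondrial ribosomal proteins 8 of 77 and 9 of 77. Of all genes tested, 17.9% passed for CORT in AS mice, 8.25% as higher, and 8.23% for the division. In WT mice 0 genes of these 4 lists passed with CORT, where 1.48% of all genes did.

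Of 28 genes of the mTORC1 pathway, 2 rose with acute CORT in WT mice, Castor1 (0.75), an arginine sensor that holds mTORC1 back, and Klf15 (0.49), a transcription factor induced by glucocorticoids, while 1.48% of all genes passed there. For the division at H17, 0 of the 28 passed, against 8.23% of all genes. With acute CORT in AS mice 5 of 28 passed, the same share as the 17.9% of all genes, and 4 of them were higher. Castor1 was at 0.81 and Klf15 at 0.45. Sestrin genes, whose products sense leucine and stress, went apart, with Sesn1 higher (0.34) and Sesn2 lower (-0.34).

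Over the 24 acute libraries, members moved together. The correlation of a member's log2 level with the mean of the other members had a median of 0.863 and was above 0.5 for 75 of 81 (a description, since libraries share groups and depth). The coefficient of variation of CPM had a median of 13.8% and was lowest for Rpl7l1, a paralog of Rpl7, at 6.30% and high for Rps21 at 25.9% and the low-level Rps27l at 27.3%. The gene outside the members with the profile most like their mean was Fau (Pearson correlation of 0.953 over 24 libraries), followed by Clta, Cyth2, Nol12 and Mrpl28 (0.942 to 0.927). Among members, the difference of H17 and H18 from H13 to H16 had a Spearman correlation of -0.31 with transcript length, with a median of 0.35 over the 40 shorter and 0.22 over the 41 longer members. Members with a C or T run at the start had a median of 0.25 (28 members) those without one 0.19 (33 members) and those with no promoter entry 0.39 (20 members).

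With continuous CORT, given by pellet, no member passed the threshold in the hippocampus. For CORT against vehicle, 0 of 81 passed in WT mice (2.92% of genes, 2 members at an unadjusted p under 0.05, 0 by DESeq2) and 0 in AS mice (3.77% of genes, 6 at an unadjusted p under 0.05, 1 by DESeq2). For AS against WT, 0 passed with vehicle (0.0134% of genes, 2 at an unadjusted p under 0.05) and 0 with CORT (0.0401% of genes, 2 at an unadjusted p under 0.05), and 0 members and 0% of genes passed for the interaction, with 3 members at an unadjusted p under 0.05. DESeq2 called 0 members in these last 3 comparisons. The log2 fold changes for CORT lay between -0.12 and 0.19 in WT and between -0.08 and 0.20 in AS mice, and the median standard error was 0.059 in both, smaller than the 0.10 of the acute fit.

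Levels of Rpl31 and Rps21, which differed between acute libraries, overlapped between all groups here. Rpl31 ranged from 99.4 to 127.5 CPM and Rps21 from 155.5 to 225.7 CPM over the 18 libraries. The median coefficient of variation was 6.17%, and the median correlation of a member with the mean of the others was 0.665, with Ndufb10, of respiratory complex I, as the gene most like their mean (0.819 over 18 libraries). Of the mTORC1 genes, Ddit4 (0.53 and 0.55), whose product inhibits mTORC1, and Klf15 (0.51 and 0.88) rose with CORT in WT and AS mice. Of all genes 2.92% and 3.77% passed there, and the number that passed in the mTORC1 list is not given here.

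In WT livers 9 of 81 members passed for continuous CORT, all lower. This is 11.1%, close to the 9.9% of all genes that passed as lower, and 18.6% of all genes passed in either direction, so the count does not set the members apart. The median log2 fold change of members was -0.11, with 73 of 81 below 0, against -0.005 over all genes. All WT CORT values lay below all WT vehicle values for 8 members, as for 869 of 12273 genes.

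Rps4x, the X-linked 40S protein, had 345.6, 371.5, 390.9, 375.8 and 355.6 CPM with vehicle and 313.3, 313.7, 293.0, 321.0 and 309.9 CPM with CORT in WT livers. These groups did not overlap, and the log2 fold change was -0.25 ± 0.07 (SE, adjusted p = 0.0125). Rpl12, a 60S protein at the stalk base, had 140.2, 153.6, 165.5, 146.6 and 148.3 CPM with vehicle and 127.5, 128.1, 115.3, 126.6 and 114.2 CPM with CORT (-0.30 ± 0.08, adjusted p = 0.0156). Rps9, of the 40S, had 233.2, 268.2, 233.2, 233.2 and 199.0 CPM with vehicle and 197.2, 206.7, 173.8, 180.8 and 158.5 CPM with CORT, with 1 vehicle value inside the CORT range (-0.35 ± 0.10, adjusted p = 0.0172). Rpl22 and Rps18 (both -0.25) were next, with group means of 99.6 ± 4.25 and 83.8 ± 6.11 CPM for Rpl22 and of 280 ± 8.13 and 235 ± 13.05 CPM for Rps18 (SD, n = 5). The other members past the threshold were Rpl17, Rpl36a (-0.32), Rpl6 and Rps14.

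**Figure D4:**
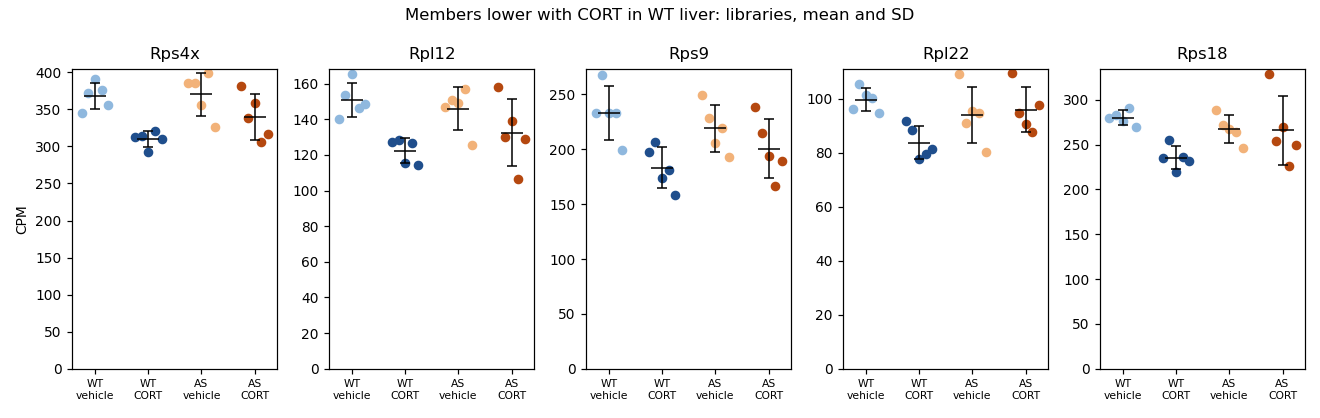
Level of 5 ribosomal protein genes in liver (CPM, axis from 0) by group, with libraries as points and mean and SD as bars (n = 5). WT CORT livers lie below WT vehicle livers for Rps4x, Rpl12, Rpl22 and Rps18, and AS vehicle and AS CORT livers overlap for all 5.

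In AS livers 0 members passed for CORT, against 27.5% of all genes, with 2 members at an unadjusted p under 0.05, 0 called by DESeq2 and a median log2 fold change of 0.03. Rps4x was 370 ± 29.3 CPM with vehicle and 340 ± 30.7 CPM with CORT in AS mice, and Rpl12 146 ± 11.96 and 133 ± 18.8 CPM (SD, n = 5). The spread within the AS groups was wider than within the WT groups for both genes. The difference between the genotypes itself did not pass for any member: for the interaction, 0 members and 0% of genes passed, with 8 at an unadjusted p under 0.05, 0 called by DESeq2, a median of 0.14 and 78 of 81 members above 0. The AS CORT liver L7 stood apart, with 79 of 81 members above the WT vehicle mean and a median deviation of 0.23 (log2), against -0.20 to 0.01 in the other AS CORT livers. Without L7 the median was -0.02 for CORT in AS mice and 0.09 for the interaction, and 0 members passed in either. AS against WT gave 0 members with vehicle (0.0163% of genes, 0 at an unadjusted p under 0.05) and 0 with CORT (0.277% of genes, 11 at an unadjusted p under 0.05, all but 5 of 81 members above 0), and DESeq2 called 0 in both.

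The paralogs and reference genes in WT liver did not all share this direction. Rpl13a, whose counts are uncertain because it shares exons with another gene, was at 0.36 ± 0.14 with CORT (SE, adjusted p = 0.0740). Rps19bp1, which is named for binding the 40S protein S19 and is no ribosomal protein, was at 0.15 ± 0.10 (SE, adjusted p = 0.307). Rplp0, Rplp1 and Rplp2 were at -0.09, 0.01 and -0.17, Rpsa at -0.17 (adjusted p = 0.0589), Rpl4 at -0.10 and Rps27l at -0.03, and none of these passed. The count of 9 was 3 without L12, 4 without L13, L15 or L20 and 6 without L4, and it was 3 without the filter on low counts and 15 with upper-quartile scaling, an alternative chosen after the data were seen. The share of all genes under these settings is not given here, so the counts do not set the members apart from other genes.

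Markers of macrophages, lymphocytes and blood were at lower summed levels with CORT in these livers. Summed over 5 microglia and macrophage markers, WT livers had 97.6 to 119 CPM with vehicle and 50.2 to 74.1 CPM with CORT, lymphocyte markers had 4.63 to 5.64 and 1.09 to 2.59 CPM, and blood markers 350 to 585 and 222 to 320 CPM. AS livers showed lower ranges with CORT too, of 126 to 166 and 50.7 to 73.6 CPM for macrophage markers. Hepatocyte markers overlapped in WT livers (103015 to 118304 and 95871 to 113821 CPM). The part of these cells in the lower member levels was not tested.

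No gene of the other TOP or assembly lists passed as lower in WT liver. Of the other TOP genes 1 of 18 passed and was higher (Nap1l1, 0.56), and of the assembly genes 1 of 54 passed and was higher (Nop10, 0.26), both smaller shares than the 18.6% of all genes that passed. In AS liver 3 TOP genes and 8 assembly genes passed, all higher, which in both lists is a smaller share than the 27.5% of all genes, among them Ltv1 (0.40), an export factor of the 40S subunit. Ddit4 rose by a log2 fold change of 2.16 in WT and 1.98 in AS livers, and Eif4e, the cap-binding factor, by 0.27 and 0.42. The liver profile most like the mean of the members was that of Rack1, a scaffold protein of the 40S subunit (0.921 over 20 libraries), and the median correlation of a member with the others was 0.825.

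Liver and hippocampus were compared in WT vehicle mice of the continuous experiment (5 livers against 4 hippocampi), to place the members among tissues. Here 82 members passed the filter, and 77 were higher in liver and 0 lower, which is 93.9%, while 89.6% of all genes differed and 41.8% were higher in liver. The median log2 fold change was 1.01, against -0.16 for all genes, a difference of 1.17. This count depends on the scaling between tissues. By library totals alone 38 members were higher and 18 lower, and the median of all genes moved to -1.02, so that the difference stayed at 1.17. With trends on GC content and transcript length removed, 40 were higher and 22 lower, and the members' median lay 0.26 below that of all genes.

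Rps27l, a paralog of Rps27 known in human cells as a p53 target, had the largest difference with TMM, by library totals and with trends removed. It had 8.29, 6.39, 6.03 and 7.98 CPM in hippocampus and 149.1, 153.3, 165.0, 154.0 and 151.0 CPM in liver (log2 fold change of 4.43 ± 0.11, SE, adjusted p = 1.19e-29, 3.57 by library totals and 2.90 with GC and length trends removed). Per kilobase of transcript, its level was 4.58% ± 0.554 of that of Rps27 in hippocampus (SD, n = 4) and 53.9% ± 5.74 in liver (SD, n = 5). Rps27 itself ranked 4th per kilobase in hippocampus and 6th in liver among the members. The level of Rps27l did not pass for CORT in either genotype of liver (-0.03 and 0.06).

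Other paralogs were set beside their parents in the same way. Per kilobase, Rpl22l1 stood at 25.1% ± 2.42 of Rpl22 in hippocampus and 16.03% ± 2.18 in liver, and Rpl7l1 at 18.1% ± 0.616 of Rpl7 in hippocampus and 24.4% ± 1.52 in liver (SD, n = 4 and 5). Rpl36al had 3 to 7 counts in hippocampus and 14 to 27 in liver, or 0.308% and 1.44% of Rpl36a per kilobase, with 24.5% of its exon length shared with another gene. It entered this fit through its liver counts alone and its hippocampal level is at the floor, so no fold is given and its place among the 77 is no support. Rps27rt, named as a retrogene of Rps27, was at 0.702% and 0.593% of Rps27. Rps19bp1, which is only named after Rps19 and is no paralog of it, was at 8.44% and 7.90% of Rps19.

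**Figure D5:**
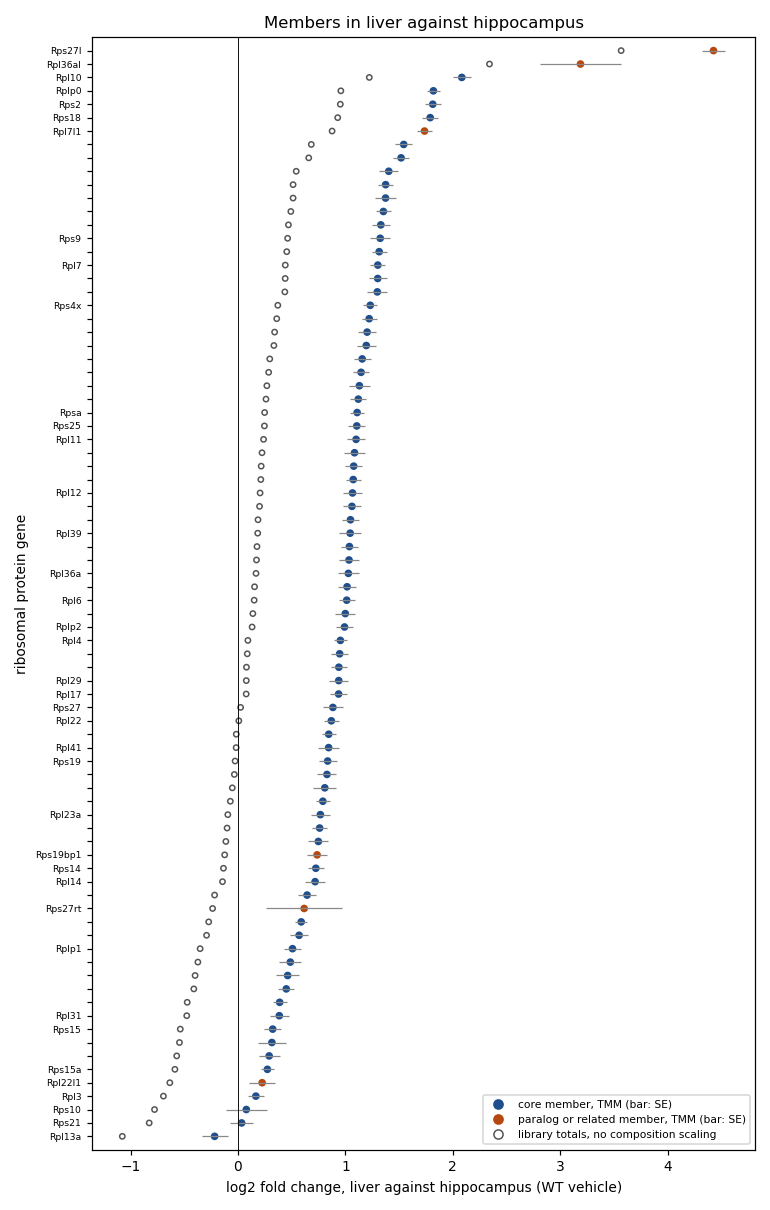
Log2 fold change between liver and hippocampus of WT vehicle mice for 82 ribosomal protein genes, named where described in the text, with filled points and SE bars for TMM-normalized counts and open points for library totals. Rps27l stands at 4.43 and Rpl13a at -0.22 with TMM, and the open points lie to the left of the filled ones for every gene.

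With TMM, among core members, Rpl10 (2.08 ± 0.08), Rplp0 (1.82 ± 0.06), Rps2 (1.81 ± 0.07) and Rps18 (1.79 ± 0.07) differed most (SE), and each stayed higher in liver by library totals (1.22, 0.96, 0.95 and 0.93) and with GC and length trends removed, where other core members lay above all 4. Rplp0 had 115.7 to 124.0 CPM in hippocampus and 396.4 to 443.4 CPM in liver. Rpl13a (-0.22), Rps21 (0.03), Rps10 (0.08), Rpl22l1 (0.22) and Rps27rt (0.62) did not pass, with adjusted p-values from 0.0816 to 0.769. Rplp1, of the stalk, had the highest level per kilobase in both tissues, 756 ± 43.8 CPM per kilobase in hippocampus (SD, n = 4) and 1075 ± 52.4 in liver (SD, n = 5), with Rps15 second in hippocampus (475 ± 35.2) and Rpl10 second in liver (758 ± 43.8). Among genes used as references, Rpl4 differed by 0.95 and Rps18 by 1.79, and by library totals by 0.09 (adjusted p = 0.157, not passing) and 0.93.

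Markers that the tissues may share varied between the hippocampi of this comparison. Ttr, made by choroid plexus and by liver, was at 43.4 to 2738 CPM in the 4 hippocampi used and at 12954 CPM in H13, while Alb, made by hepatocytes, reached 88.7 CPM in the hippocampi against 72902 to 85858 CPM in the livers. Leaving out single mice gave 75 to 79 members past the threshold. The other TOP genes gave 16 higher and 2 lower of 18, assembly genes 29 higher and 14 lower of 54, and mitochondrial ribosomal proteins 67 higher and 8 lower of 77, where 89.6% of all genes differed and 41.8% were higher. The part of choroid plexus in the member differences was not tested.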

How the data were processed

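The authors deposited raw counts per gene without normalization, made by quality control with FastQC and MultiQC, alignment of stranded, paired-end reads to mm10 with STAR and counting with HTSeq in the BioWDL pipeline, without pooling of replicates. Whether counting used strand is not given in the sources used here. From the 64 libraries, 0 columns belonged to no sample. Symbols and positions came from GENCODE M21 on GRCm38, promoters from RefSeq (GRCm38.p6). HTSeq rows that name no gene stayed out of library sizes.

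Genes with over 20 median-of-ratios counts in 3 or more mice of some group were tested by the quasi-likelihood test of edgeR 4.0.16 (R 4.3.3) with TMM normalization, one fit per experiment, and Benjamini-Hochberg adjustment over all genes (threshold 0.05). CPM are TMM-normalized, and share percentages use raw counts. Each count of members was also computed with the Wald test and the size factors of DESeq2 1.42.0, without the filter, with GC and length trends removed and without each mouse, and the acute genotype and CORT comparisons with a covariate for H17 to H24 and without H8. Fits with part of the AS vehicle mice, library totals, upper-quartile scaling and added pseudogene counts were chosen after seeing the data. The fits were tested on simulated data.

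The members, gene lists and tests were chosen with earlier results of these data known. Named are up to 5 members per direction with the smallest p, stalk proteins, Rpsa, common reference genes, paralogs with their parents, up to 4 genes per other list, and the 5 genes most like the mean member profile. Single values of some members are not reported here, while all counts and medians include them. Members outside this rule that are named were chosen after their values were seen. The labels do not say which samples share a litter or cage. The p-values set each difference against the spread within groups, estimated over all groups of a fit. Between tissues, the main fit treated libraries as independent, though both tissues came from the same mice.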

Additional observations from a re-analysis of the deposited data

Results flagged for a closer look

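Among 384 groups of 4 to 6 libraries examined, for the member share and for those of 36 named members that were tested, 31 held a library set apart. Its gap to the nearest other library, as a share of the range of the group, exceeded Dixon's 95% critical value, and chance gives about 1 in 20. In acute WT CORT mice H8 stood highest with a member share of 1.27% and with CPM of 203.9 for Rpl10, 12.5 for Rpl13a, 12.6 for Rpl22l1, 118.8 for Rpl29, 329.9 for Rpl3, 594.0 for Rpl4, 216.9 for Rpl41, 203.4 for Rpl7, 369.3 for Rps15, 16.8 for Rps19bp1, 404.1 for Rps2, 150.9 for Rps9 and 677.3 for Rpsa. Values without H8 stand beside the acute comparisons with CORT above. In the same experiment Rps2 was lowest in the AS CORT mouse H20 (262.0 CPM) and highest in the AS vehicle mouse H15 (370.4 CPM), and Rps27l was highest in the AS CORT mouse H23 (3.62 CPM).

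In the continuous hippocampus, H13 (WT vehicle), which was left out of the fit, had a member share of 1.66%. Among AS vehicle mice, H14 was lowest for Rpl12 (111.9 CPM), Rpl23a (112.1 CPM), Rpl3 (289.0 CPM) and Rps15 (291.4 CPM), and H19 was highest for Rps2 (286.7 CPM). Among AS CORT mice, H7 was highest for Rpl39 (75.6 CPM), Rps21 (225.7 CPM) and Rps27 (197.9 CPM) and H16 was lowest for Rpl29 (58.5 CPM). Rps27rt was highest in the WT vehicle mouse H1 (1.65 CPM). In AS CORT livers, L7 was highest for Rpl10 (495.0 CPM), Rpl7 (295.8 CPM) and Rps2 (643.7 CPM).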

How the results depend on the processing

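Of the comparison counts and shares recomputed under settings other than leaving out each mouse in turn, 98 stayed, counts within 1.5 times and shares within 1 SD between mice, and 19 moved. These were 2 for the acute interaction by DESeq2, 24 (18 higher, 6 lower) for AS against WT with acute CORT once GC and length trends were removed, and 0 for both acute AS CORT comparisons with the covariate for H17 to H24. Without H8 the counts were 26 for CORT in AS mice, 39 for AS against WT with CORT and 22 for the interaction. With only H17 and H18 as AS vehicle mice CORT gave 0, and with only H13 to H16 it gave 43, with 26 for the interaction. Continuous CORT in AS hippocampus gave 1 by DESeq2 and 1 with trends removed. WT liver gave 3 without a filter on low counts and 15 with upper-quartile scaling, and AS liver 3 with trends removed. The median member share was 0.839%, 1.14% and 1.14% of all reads in acute hippocampus, continuous hippocampus and liver, and 1.69% in liver without the 10 most abundant genes. The count between tissues stayed within 1.5 times, with 62 once trends were removed and 56 by library totals. Where no share of all genes is given for a setting, its count does not tell the members from other genes. The cause of these changes was not tested.

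Directions turned with the covariate for CORT in AS mice in Rpl31 (-0.00011), with only H17 and H18 as AS vehicle mice in Rpl31 (-0.0050), and with the covariate for AS against WT with CORT in Rpl22l1 (-0.0022), Rpl23a (-0.19), Rpl31 (-0.22) and Rps21 (-0.33). Between tissues they turned, among other members, with trends removed in Rpl22 (-0.38), Rpl3 (-0.48), Rpl36a (-0.29), Rpl39 (-0.013) and Rps27 (-0.38), and by library totals in Rpl3 (-0.69), Rplp1 (-0.35) and Rps19bp1 (-0.12).

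Leaving out each mouse in turn gave 0 to 27 members for acute CORT in AS mice, 4 to 39 for AS against WT with CORT, 0 to 22 for the interaction, 2 to 21 for H17 and H18 against H13 to H16, 3 to 11 for CORT in WT liver, 0 to 1 in AS liver, 75 to 79 between tissues and 0 in the other comparisons. Hippocampal and liver libraries share numbers, which the labels do not tie to a mouse, though both tissues came from the same mice. Deviations of same-numbered libraries from their groups correlated by -0.038 to 0.042 over 18 pairs, 0 of them over 0.1, which gives no sign of pairing and does not show that the numbers mark different mice. A replicate block gave 76 members between tissues, all higher in liver.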
